A study of Homo sapiens with 2 samples.

Results

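Tags of 10 genes were compared between cells carrying a hairpin against SOX2 and cells carrying a scrambled hairpin: the CXC chemokine genes CXCL1, CXCL2, CXCL3, CXCL5 and IL8, and the NF-κB regulator genes NFKBIA, NFKB1, RELA, TNFAIP3 and BCL10. The members were taken by symbol from the deposited table of 13137 genes, and all 10 were found there, with between 29 and 875 tags in the libraries together. The study asked how silencing of SOX2, a transcription factor of stem cells, changes the transcription of cancer genes in A549, a human lung adenocarcinoma cell line. Both A549 lines were infected with lentivirus carrying a doxycycline-inducible H1TetO hairpin cassette, selected as polyclonal lines with puromycin, and given doxycycline for 4 days. The only difference between the groups given by the labels is the hairpin, shRNA-SOX2 or the scrambled shRNA-Con. Digital gene expression counted short tags of oligo(dT)-purified mRNA from 4 µg of total RNA, with 1 library per condition.

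CXC chemokines are small secreted proteins, and those studied here attract neutrophils through the receptors CXCR1 and CXCR2. Their genes are textbook targets of NF-κB, a family of dimers such as p50 with RELA that IκB proteins such as the product of NFKBIA hold in the cytoplasm until the IKK kinases mark IκB for degradation. NFKBIA, NFKB1 and TNFAIP3 are themselves NF-κB targets and form feedback loops, and airway epithelial cells, A549 included, secrete IL8 when the pathway is active.

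The shRNA-Con library, called the control library here, held 2304184 gene tags, and the shRNA-SOX2-labelled library held 2093816. SOX2 itself had 16 tags in the control library and 23 in the shRNA-SOX2-labelled library, a ratio of 1.58 with a 95% counting interval from 0.80 to 3.20, and it did not pass Fisher's exact test (adjusted p = 0.333). The targeted transcript therefore does not check the labels. The column SC was read as shRNA-Con from its initials, and the column S1 was taken as shRNA-SOX2 by elimination. Genes listed for the A549 epithelium, with AKR1B10, ALDH1A1 and TFPI2 beside keratins, summed to 35323 and 41334 tags over 9 genes with values, of 10 listed. Of the 9, 4 fell and 3 rose past Fisher's exact test at FDR 0.001, where 12.2% of all genes fell and 9.53% rose. Not all were abundant: EPCAM had only 8 and 4 tags, CDH1 50 and 50, and KRT19 35 and 127. Blood and immune cell markers summed to 24 tags in each library over 6 genes with values of 12 listed, with at most 11 for a gene, and 0 of the 6 passed the test. Fibroblast and endothelial markers summed to 54 and 59 tags over 4 genes of 10 listed, most of them from COL1A1 with 44 and 43 and THY1 with 7 and 14, and 0 of the 4 passed. PTPRC, which defines blood cells, had 2 tags in each library, and the endothelial gene PECAM1 had 3 in shRNA-Con and 0 in the shRNA-SOX2-labelled library.

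The starts of the chemokine genes are shown because all 5 hold the same κB letters within 100 bases before the RefSeq start. The sequences are RefSeq promoters of the build GRCh38.p14, written 5′ to 3′ along each gene's own strand and ending at the base before the RefSeq start. Capitals mark GGAATTTCC, the core of a κB site, and in IL8 also TGACTCA, an AP-1 site. The windows are chr4:73869243-73869392 on the plus strand for CXCL1, chr4:74099196-74099345 on the minus strand for CXCL2, chr4:74038690-74038839 on the minus strand for CXCL3, chr4:73998678-73998827 on the minus strand for CXCL5 and chr4:73740419-73740568 on the plus strand for IL8, which RefSeq names CXCL8.
CXCL1: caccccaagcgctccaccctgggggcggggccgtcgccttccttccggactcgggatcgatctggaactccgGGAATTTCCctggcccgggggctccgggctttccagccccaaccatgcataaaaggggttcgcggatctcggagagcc
CXCL2: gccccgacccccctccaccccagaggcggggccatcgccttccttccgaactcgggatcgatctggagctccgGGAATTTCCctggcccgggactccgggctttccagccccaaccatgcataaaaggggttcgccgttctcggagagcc
CXCL3: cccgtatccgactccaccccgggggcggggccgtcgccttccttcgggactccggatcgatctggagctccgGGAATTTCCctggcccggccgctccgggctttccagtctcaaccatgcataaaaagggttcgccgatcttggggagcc
CXCL5: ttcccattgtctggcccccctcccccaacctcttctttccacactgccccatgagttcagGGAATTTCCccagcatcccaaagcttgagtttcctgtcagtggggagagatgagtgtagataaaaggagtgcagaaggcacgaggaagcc
IL8: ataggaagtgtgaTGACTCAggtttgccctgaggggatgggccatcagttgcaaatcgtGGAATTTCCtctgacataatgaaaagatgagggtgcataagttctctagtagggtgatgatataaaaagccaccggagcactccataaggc

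NFKBIA and NFKB1, the regulators with the core letters, and TNFAIP3, with a pair of neighbouring matches to the wider κB motif, are shown over 100 bases. BCL10 and RELA also hold matches to the wider motif and are not shown. The window of NFKBIA is chr14:35404750-35404849 on the minus strand, and it holds the core letters on the opposite strand, so that GGAAATTCC is read here. That of NFKB1 is chr4:102501259-102501358 on the plus strand. TNFAIP3, at chr6:137867159-137867258 on the plus strand, lacks the core, and its capitals mark a pair of matches to the wider κB motif on the opposite strand.
NFKBIA: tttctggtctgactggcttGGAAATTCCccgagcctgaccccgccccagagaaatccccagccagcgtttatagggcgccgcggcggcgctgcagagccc
NFKB1: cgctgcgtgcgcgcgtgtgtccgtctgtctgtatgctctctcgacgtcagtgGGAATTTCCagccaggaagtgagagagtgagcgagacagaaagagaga
TNFAIP3: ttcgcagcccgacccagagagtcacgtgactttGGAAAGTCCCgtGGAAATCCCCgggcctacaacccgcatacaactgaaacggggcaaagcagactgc

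Windows from 250 bases before to 50 after each RefSeq start were searched on both strands, with 12 windows for the 10 members and 35116 windows in all. The core GGAATTTCC was found in 162 of all windows (0.461%) and in windows of 7 of the 10 members: all 5 chemokine genes, NFKBIA and NFKB1. It lay at bases -78 to -70 from the start in CXCL1 and in CXCL3, -77 to -69 in CXCL2, -90 to -82 in CXCL5, -91 to -83 in IL8, -81 to -73 in NFKBIA and -48 to -40 in NFKB1. In all of these but IL8 the core overlaps a match to the wider κB motif of 3 G, any 5 bases and 2 C. This wider motif was in windows of all 10 members, but also in 58.7% of all windows. The AP-1 letters TGANTCA were in the window of 1 member, IL8, at -137 to -131, against 7.71% of all windows. The letters CNTTGT, a loose form of a SOX site with any base at N, were in the window of 1 member, CXCL5, against 35.5% of all windows. In CXCL5 they read CGTTGT and CATTGT. Outside the members, 53 genes with values had the core GGAATTTCC in a window. Of these 9 fell and 5 rose past the test below, where 12.2% of all genes fell and 9.53% rose. The median log2 ratio of the 43 with at least 20 tags was -0.08, near the -0.10 of all genes with that many tags. A match is a description of letters, and a motif can lie outside these windows.

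The 5 chemokine genes lie within 359 kb of chromosome 4, from base 73740506 to 74099293 in the GENCODE release 29 annotation of GRCh38, a stretch with 9 protein-coding genes. In order along the plus strand these are IL8, CXCL6, PF4V1, CXCL1, PF4, PPBP, CXCL5, CXCL3 and CXCL2. PF4, a platelet chemokine, had 3 tags in the control library and 0 in the shRNA-SOX2-labelled library, and CXCL6, PF4V1 and PPBP were not found by symbol among the genes with values. NFKB1 lies farther along chromosome 4 from 102501329 to 102617302. NFKBIA lies on chromosome 14 from 35401511 to 35404749, RELA on chromosome 11 from 65653596 to 65663094, TNFAIP3 on chromosome 6 from 137867188 to 137883312, and BCL10 on chromosome 1 from 85265776 to 85276904.

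CXCL5 and IL8 fell the farthest among the chemokine transcripts past the test, CXCL2 also fell, and CXCL1 and CXCL3 did not pass it. Levels are given as tags per 1000000 gene tags, and the ratio divides the level in the shRNA-SOX2-labelled library by that in the control library, with a 95% Clopper-Pearson interval. Each gene was tested by Fisher's exact test, with p adjusted over 13137 genes by the method of Benjamini and Hochberg, at an FDR of 0.001. With 1 library per condition this compares these libraries and not the conditions, there is no replicate check, and intervals cover counting error only. In bulk RNA, fewer cells making a transcript and less of it per cell cannot be told apart.

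The members were chosen with earlier results of these data known, so their counts and medians are descriptions beside those of all genes. Of the 10 members, 4 passed the test as lower, CXCL2, CXCL5, IL8 and BCL10, where 12.2% of all genes were lower, or 15.8% of the 10045 genes with at least 20 tags. By the same test 0 of 10 were higher, against 9.53% of all genes. With a log2 ratio of -1 or less there were 4 members, CXCL5, IL8, TNFAIP3 and BCL10, against 13.0% of genes with at least 20 tags. Levels were lower for 9 of the members and higher for 1, NFKBIA. The median log2 ratio was -0.98 over the members and -0.10 over genes with at least 20 tags. Scaling by clean tags moved these medians to -1.09 and -0.22, and scaling by the trimmed mean of M values (TMM) moved them to -0.91 and -0.03.

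**Figure D1:**
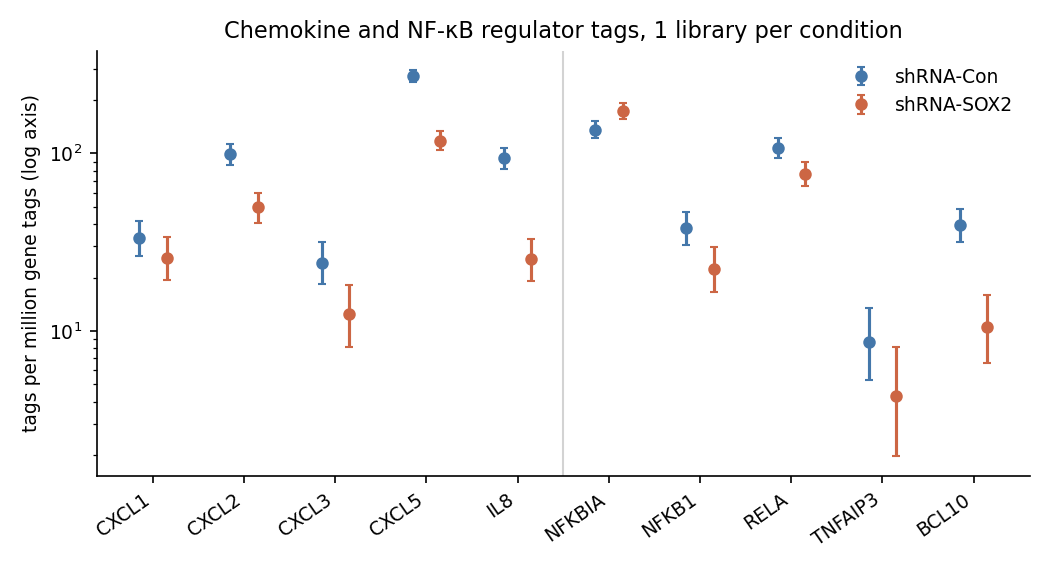
Tags per 1000000 gene tags of each member on a log axis, in shRNA-Con (blue) and in the shRNA-SOX2-labelled library (orange), 1 library each. Bars are 95% Poisson intervals of the counts. NFKBIA is the member with the higher orange point, and the blue and orange intervals overlap for CXCL1 and TNFAIP3 but not for the other members.

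CXCL5, an attractant of neutrophils made by epithelial cells, had the most tags of the chemokine genes. It had 628 tags in the control library and 247 in the shRNA-SOX2-labelled library, which are levels of 273 and 118. The ratio was 0.433 (0.372 to 0.502), or -1.21 on the log2 scale, and it passed Fisher's exact test (adjusted p = 5.71e-30). The transcript fell 2.31-fold.

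IL8 encodes interleukin 8, the best known neutrophil attractant of the family. It had 216 tags in the control library and 53 in the shRNA-SOX2-labelled library, or levels of 93.7 and 25.3. It fell 3.70-fold, the largest fall of the 5 chemokine genes, with a ratio of 0.270 (0.196 to 0.366) and a log2 ratio of -1.89 (Fisher's exact test, adjusted p = 6.46e-20). Of genes with at least 20 tags, 2.30% had a lower log2 ratio.

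CXCL2 encodes a growth-regulated attractant close to CXCL1 and CXCL3. It had 228 and 104 tags, in the same order of libraries, or levels of 99.0 and 49.7. The ratio was 0.502 (0.394 to 0.636) and the log2 ratio -0.99, which passed Fisher's exact test (adjusted p = 2.25e-08).

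CXCL1 and CXCL3 had fewer tags. CXCL3 had 56 tags in the control library and 26 in the shRNA-SOX2-labelled library, with a ratio of 0.511 (0.308 to 0.827) near that of CXCL2, but it did not pass Fisher's exact test at FDR 0.001 (adjusted p = 0.0130). CXCL1 had 77 and 54 tags, with a ratio of 0.772 (0.535 to 1.11), so that its interval includes no difference (adjusted p = 0.283). At this depth the interval of CXCL1 reaches from near the ratio of CXCL2 to above 1.

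Single counts of CXCL1, CXCL2 and CXCL3 are uncertain, because parts of their transcripts are alike. The sources used here do not say how tags matching several genes were counted, and the places of the tags in the transcripts were not located. Their coding sequences were 90.8% to 94.4% identical, against 53.7% to 62.4% for pairs that include CXCL5 or IL8. After the coding sequence CXCL1 and CXCL2 were still 86.0% identical, and CXCL3 was 62.6% identical to CXCL1 and 63.5% to CXCL2. Of the 21-base stretches in the transcript of CXCL2, 29.3% also occurred in another of the 5 chemokine transcripts, as did 25.4% of those in CXCL1 and 14.5% of those in CXCL3. For CXCL5 and IL8 the number was 0 of 2518 and 0 of 1685. After the coding sequence, 162 of 686 such stretches of CXCL1 occurred in that part of CXCL2. Only 1 of 686 of CXCL1 and 1 of 701 of CXCL2 occurred in that part of CXCL3.

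If each tag was counted for exactly 1 gene, sums do not depend on how tags were split within the group. Whether this was so is not known here. CXCL1, CXCL2 and CXCL3 together had 361 tags in the control library and 184 in the shRNA-SOX2-labelled library, a ratio of 0.561 (0.467 to 0.672). All 5 chemokine genes together had 1205 and 484 tags, or levels of 523 and 231, with a ratio of 0.442 (0.397 to 0.492) and a log2 ratio of -1.18.

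The make-up of the chemokine tags differed in IL8 and CXCL1 more than in the others. IL8 made up 17.9% (15.8% to 20.2%, Clopper-Pearson) of the tags of the 5 genes in shRNA-Con and 11.0% (8.31% to 14.1%) in the shRNA-SOX2-labelled library. CXCL1 made up 6.39% (5.08% to 7.92%) and 11.2% (8.49% to 14.3%). CXCL5 held about the same share, with 52.1% and 51.0%, and the intervals of CXCL2 and CXCL3 overlapped between libraries.

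**Figure D2:**
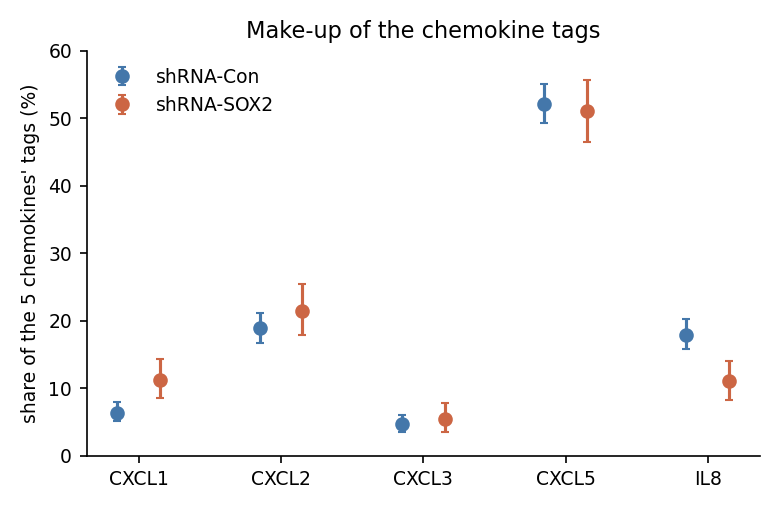
Share of the tags of the 5 chemokine genes, in percent, that came from each gene in shRNA-Con (blue) and in the shRNA-SOX2-labelled library (orange), with 95% Clopper-Pearson intervals. IL8 has a lower share in the shRNA-SOX2-labelled library (11.0% against 17.9%), CXCL1 has a higher one (11.2% against 6.39%), and CXCL5 stays near 51.0% to 52.1%.

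Among the regulators, NFKBIA alone had a higher level in the shRNA-SOX2-labelled library. BCL10 fell past the test. TNFAIP3 and the NF-κB subunits NFKB1 and RELA had lower levels, and neither these nor NFKBIA passed the test.

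BCL10 encodes an adaptor that, with MALT1 and a CARD protein, links antigen receptors and other surface receptors to the IKK complex. It had 91 tags in the control library and 22 in the shRNA-SOX2-labelled library, or levels of 39.5 and 10.5. BCL10 fell 3.76-fold, the largest fall of the 10 members, with a ratio of 0.266 (0.159 to 0.428) and a log2 ratio of -1.91 (Fisher's exact test, adjusted p = 6.84e-09). The interval of IL8 (ratio 0.270, 0.196 to 0.366) lies within that of BCL10, so the order of these falls is not resolved. By level BCL10 was the sixth of the members in the control library and the ninth in the other, where its counting interval overlapped that of CXCL3. Its partner MALT1 did not pass the test and had 83 tags in the control library and 62 in the shRNA-SOX2-labelled library (log2 ratio -0.28, adjusted p = 0.379, Fisher's exact test). CARD10 had 37 and 40 (log2 ratio 0.25, adjusted p = 0.629, Fisher's exact test). CARD9 had 5 and 2 tags and CARD14 had 2 and 0, too few to compare.

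NFKBIA encodes IκBα, the inhibitor that holds NF-κB in the cytoplasm. It had 314 tags in the control library and 363 in the shRNA-SOX2-labelled library, or levels of 136 and 173. The ratio was 1.27 (1.09 to 1.48) and the log2 ratio 0.35, which did not pass Fisher's exact test at FDR 0.001 (adjusted p = 0.00663). Its call depended on scaling: with TMM factors the log2 ratio was 0.42 and NFKBIA passed (adjusted p = 0.000762, Fisher's exact test), and with clean tags it was 0.23 and did not (adjusted p = 0.0876). NFKBIA had the most tags of all 10 members in the shRNA-SOX2-labelled library, where CXCL5 had the most in shRNA-Con.

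RELA encodes the p65 subunit that carries the activating domain of the common NF-κB dimer. It had 248 and 161 tags, or levels of 108 and 76.9, with a ratio of 0.714 (0.582 to 0.875) and an adjusted p of 0.00354 by Fisher's exact test. Scaled by clean tags, RELA passed as lower (log2 ratio -0.60, adjusted p = 0.000198, Fisher's exact test). NFKB1 encodes the precursor of the p50 subunit. It had 88 and 47 tags, or levels of 38.2 and 22.4, with a ratio of 0.588 (0.403 to 0.847) and an adjusted p of 0.0111 by Fisher's exact test.

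TNFAIP3 encodes A20, a ubiquitin-editing enzyme that damps NF-κB signalling. It had 20 tags in the control library and 9 in the shRNA-SOX2-labelled library, the fewest of the members in each. Its ratio of 0.495 (0.199 to 1.14) has an interval that includes no difference (adjusted p = 0.186, Fisher's exact test), and a change of the size seen in CXCL2 was not detectable at this depth.

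**Figure D3:**
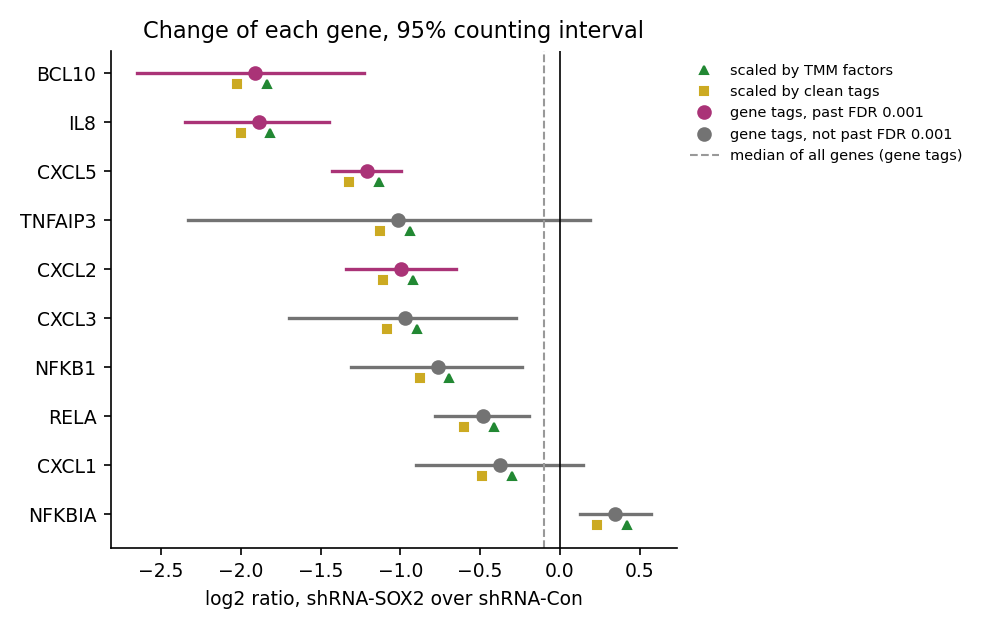
Log2 ratio of levels, shRNA-SOX2-labelled over control library, for each member, with the 95% Clopper-Pearson interval. Points in purple passed Fisher's exact test at FDR 0.001, grey points did not, and squares and triangles give the ratio scaled by clean tags and by TMM factors. BCL10 and IL8 lie near -1.9 and NFKBIA is the member above 0 under each scaling shown, and the dashed line is the median of genes with at least 20 tags, -0.10.

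By order of level, CXCL5, NFKBIA, RELA, CXCL2 and IL8 led in shRNA-Con, and NFKBIA, CXCL5, RELA, CXCL2 and CXCL1 in the shRNA-SOX2-labelled library. Digital gene expression counts a tag per transcript and not fragments along its length, so tags were not divided by length. Counting intervals of neighbours in the order overlapped for RELA (94.7 to 122), CXCL2 (86.5 to 113) and IL8 (81.7 to 107) in shRNA-Con, so that their order is not resolved there. In the shRNA-SOX2-labelled library the intervals of CXCL1 (19.4 to 33.7), IL8 (19.0 to 33.1) and NFKB1 (16.5 to 29.8) overlapped likewise. IL8 was level with CXCL2 in shRNA-Con and with CXCL1 in the other library.

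The ratio of 2 members within a library does not depend on scaling, and was compared between libraries by Fisher's exact test for each of the 45 pairs, with adjustment over the pairs. Adjusted p was under 0.05 for 20 of 45 pairs, and 9 of these were the 9 pairs of NFKBIA. CXCL5 had 2.0 tags per tag of NFKBIA in shRNA-Con and 0.680 in the shRNA-SOX2-labelled library (adjusted p = 1.81e-22, Fisher's exact test). IL8 had 0.688 and 0.146 tags per tag of NFKBIA (adjusted p = 4.65e-21, Fisher's exact test). NFKBIA had 1.27 and 2.25 tags per tag of RELA, the subunit its protein binds (adjusted p = 4.64e-05, Fisher's exact test), and 3.57 and 7.72 per tag of NFKB1 (adjusted p = 0.000382, Fisher's exact test). The largest pair difference was between NFKBIA and BCL10, with 3.45 and 16.5 tags of NFKBIA per tag of BCL10 (adjusted p = 8.92e-11, Fisher's exact test).

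Among the 10 pairs of chemokine genes, 4 differed in their change past the threshold. These tests allow for counting error only, and no assumed spread between cultures was applied to them. Pairs with CXCL1 or CXCL2 rest on single counts, which are uncertain as given above. IL8 fell more than CXCL5 (log2 difference 0.68, adjusted p = 0.0154, Fisher's exact test) and more than CXCL2 (0.90, adjusted p = 0.00470, Fisher's exact test). It also had a lower ratio than CXCL1 (log2 difference 1.52, adjusted p = 7.63e-05, Fisher's exact test), as did CXCL5 (0.83, adjusted p = 0.00903, Fisher's exact test). CXCL2 and CXCL3 had 4.07 tags of CXCL2 per tag of CXCL3 in shRNA-Con and 4.00 in the shRNA-SOX2-labelled library. IL8 and BCL10 had 2.37 and 2.41 tags of IL8 per tag of BCL10, a log2 difference of 0.02. NFKB1 and RELA did not differ past the threshold in their change (log2 difference -0.28, adjusted p = 0.491, Fisher's exact test).

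**Figure D4:**
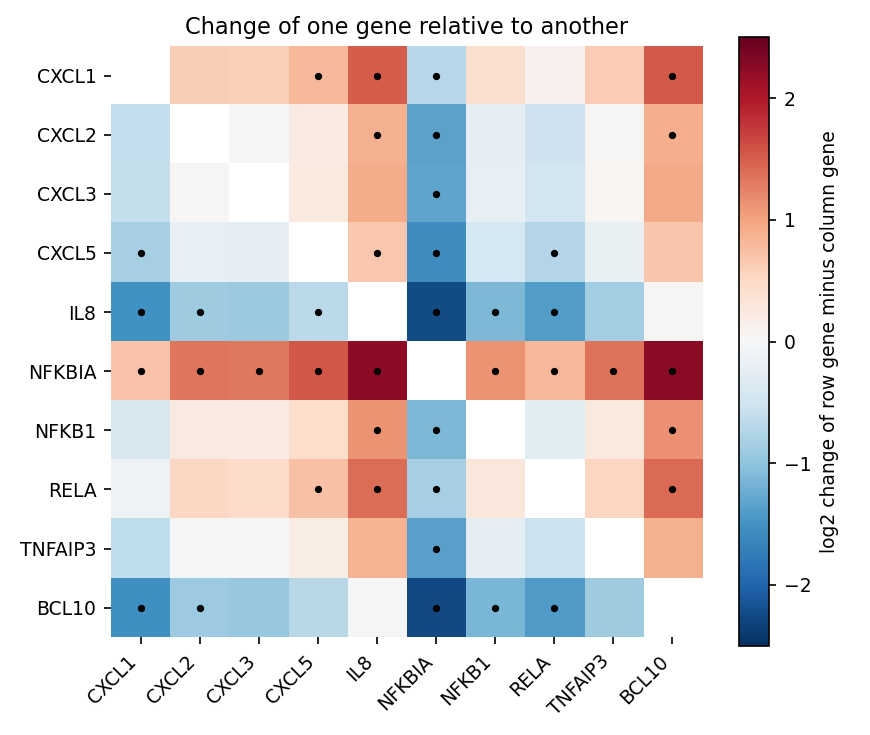
Log2 ratio of the row gene minus that of the column gene, for all 45 pairs of members, with red where the row gene had the higher ratio. Dots mark pairs with an adjusted p under 0.05 by Fisher's exact test. The row of NFKBIA is red with 9 of 9 dots, and the rows of IL8 and BCL10 are blue or near white throughout.

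Other genes of the pathway, from 134 listed names, were called in both directions. Of the 96 with values that are not members, 15 fell, 14 rose and 67 did not pass Fisher's exact test at FDR 0.001. Of all genes 12.2% fell and 9.53% rose by this test, and 15.8% of those with at least 20 tags fell, so the counts of the lists are given as descriptions beside these shares. Scaled by clean tags 19 fell and 9 rose, and with an assumed coefficient of variation of 0.2 between cultures 1 fell and 0 rose. The lists were chosen with earlier results of these libraries known.

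Among the NF-κB and IκB proteins, which include 3 members, 1 of 8 other genes fell and 1 rose, and the median log2 ratio of the list was -0.32. NFKBIB, encoding the inhibitor IκBβ, fell from 251 tags in shRNA-Con to 97 in the shRNA-SOX2-labelled library (log2 ratio -1.23, adjusted p = 1.02e-12, Fisher's exact test). NFKBIZ, encoding a nuclear IκB protein that acts with p50 at some target genes, rose from 51 to 90 (0.96, adjusted p = 0.000637, Fisher's exact test). NFKBIB and NFKBIA, both cytoplasmic inhibitors, thus had log2 ratios of opposite sign. NFKB2, the precursor of p52, had 240 and 175 tags, its partner RELB 50 and 31, and the nuclear IκB protein BCL3 183 and 157. NFKBIE, another cytoplasmic inhibitor, had 24 and 39 tags. REL had 2 and 0 tags and NFKBID 0 and 3.

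Of the 15 genes of the IKK complex and the kinases and adaptors above it, 2 fell and 4 rose, and the median log2 ratio was 0.23. IKBKG, the regulatory subunit NEMO, rose from 241 to 315 tags (0.52, adjusted p = 0.000118, Fisher's exact test). The catalytic subunits did not pass the test: CHUK had 92 and 71 tags and IKBKB had 72 and 60. RIPK1, the kinase of the TNF receptor complex, rose from 27 to 64 tags (1.38, adjusted p = 7.82e-05, Fisher's exact test), and MAP3K3 rose from 29 to 68 (1.37, adjusted p = 5.61e-05, Fisher's exact test). RIPK2, the kinase of the NOD receptors, fell from 153 to 49 (-1.50, adjusted p = 1.29e-10, Fisher's exact test). TAB2, which recruits the kinase TAK1 to ubiquitin chains, fell from 135 to 70, and TANK, a TRAF-binding scaffold, rose from 152 to 213.

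Of the 24 adaptors and receptors other than BCL10, 0 fell and 5 rose, and the list's median log2 ratio was 0.25. IL1R1, the receptor of interleukin 1, rose from 66 to 169 tags (1.49, adjusted p = 8.47e-13, Fisher's exact test). MYD88, the adaptor of that receptor and of most Toll-like receptors, rose from 39 to 89 (1.33, adjusted p = 5.55e-06, Fisher's exact test). IRAK2, a kinase of the same route, rose from 58 to 97 tags, TNFRSF1A, the main TNF receptor, rose from 628 to 729, and CD40 rose from 3 to 21.

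Of 14 ubiquitin editors other than TNFAIP3, 3 fell and 0 rose, and the list's median log2 ratio was -0.38. RBCK1, a subunit of the linear ubiquitin ligase, fell from 333 to 154 tags (-0.97, adjusted p = 1.36e-11, Fisher's exact test). UBE2N, the conjugating enzyme of K63-linked chains, fell from 110 to 37 (-1.43, adjusted p = 2.72e-07, Fisher's exact test), and TNIP1, a partner of A20, fell from 355 to 211 (-0.61, adjusted p = 5.67e-06, Fisher's exact test).

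Other chemokines were sparse: 6 of 22 listed had values, and of these 0 fell and 1 rose. CCL26, an attractant of eosinophils, rose from 9 to 46 tags (2.49, adjusted p = 3.58e-07, Fisher's exact test). Of 10 listed chemokine receptors 1 had values and it did not pass the test. CXCR1 and CXCR2, the receptors of the 5 chemokines, were looked up and had no values.

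Of 28 other NF-κB target genes with values, 9 fell and 3 rose, and the median log2 ratio was -0.62. PLAU, encoding the protease urokinase, fell from 224 to 24 tags (-3.08, adjusted p = 4.10e-36, Fisher's exact test). The cytokine LIF fell from 488 to 204 tags (-1.12, adjusted p = 8.71e-21, Fisher's exact test), and PTGS2, the inducible cyclooxygenase, fell from 336 to 135 (-1.18, adjusted p = 1.26e-15, Fisher's exact test). ZC3H12A, a ribonuclease that degrades cytokine transcripts, fell from 276 to 111 tags and the survival gene BCL2L1 fell from 514 to 268. The 3 that rose were the antiproliferative gene BTG2, from 32 to 104 tags, IRF1, from 9 to 38, and the complement gene C3, from 85 to 141.

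**Figure D5:**
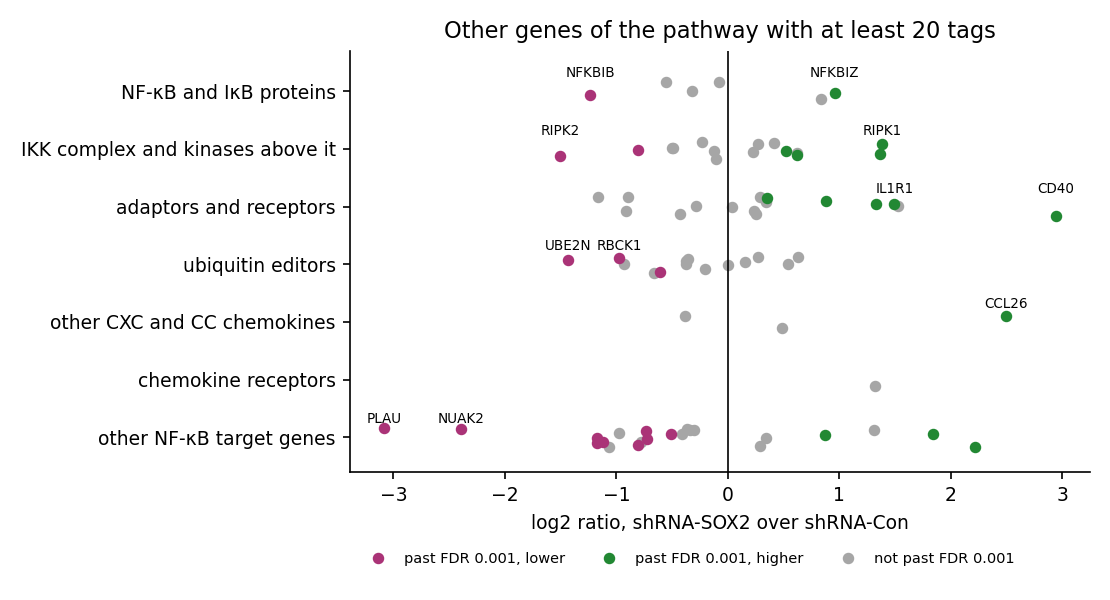
Log2 ratio, shRNA-SOX2-labelled over control library, of the pathway genes other than members with at least 20 tags, by list. Purple points fell and green points rose past FDR 0.001 by Fisher's exact test, and grey points did not pass. The ubiquitin editors have 3 purple and 0 green points, the adaptors and receptors 0 purple and 5 green, and the other target genes 9 purple and 3 green.

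The calls rest on counting error alone. Where a coefficient of variation between cultures of 0.1 was assumed in edgeR's exact test, CXCL5, IL8 and BCL10 passed FDR 0.001 and CXCL2 did not (adjusted p = 0.00210), and with 0.2 none of the 10 members passed, where IL8 had the smallest adjusted p (0.00436).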

How the data were processed

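The authors profiled oligo(dT)-purified mRNA by digital gene expression at the Beijing Genomics Institute and deposited 1 table with, per gene, a tag count and a TPM value for each library. The deposited counts are not normalized. The deposited TPM is the count per 1000000 clean tags of the library, with 0 tags written as 0.01, and was used here only to recover the clean tags: 3516266 for shRNA-Con and 3456234 for shRNA-SOX2. Of these, 65.5% and 60.6% were gene tags. The lowest count above 0 is 2, so lower counts may have been left out upstream. The submitters' processing notes name the build hg19, and the aligner is not given in the sources used here. The authors' log2 ratios, p-values and FDR were not used. The columns are named SC and S1: SC was read as shRNA-Con from its initials and S1 as shRNA-SOX2 because 1 column remained. Nameless rows took 0.0535% of shRNA-Con gene tags and 0.0372% of those of shRNA-SOX2.

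Ratios divide each count by the library's gene tags, and counts under 3 were set to 3 for the log2 ratio. Tests were two-sided Fisher's exact tests of a gene's tags against all other gene tags, adjusted over 13137 genes, at the study's FDR of 0.001. Medians use genes whose tags in both libraries sum to at least 20. Pairs of members were tested on their tags alone, adjusted over 45 pairs. A quasi-likelihood fit could not be made with 1 library per condition. The test of each gene was checked on simulated counts that hold counting error and no variation between cultures, so the check does not cover such variation. The pair tests were not part of it. The members and lists were chosen with earlier results of these data known, and the lists were given no set test. Genes named outside the members are all NF-κB and IκB genes, the IKK subunits, partners of BCL10, the receptors CXCR1 and CXCR2, and of each list up to 6 genes past FDR 0.001 with the smallest adjusted p, and SOX2. PF4, the marker genes, IRF1 and C3 are named outside this rule, after their values were seen. Gene positions and transcripts are from GENCODE release 29 and promoters from RefSeq, both of GRCh38. For the printed windows GENCODE's start lies 0 to 118 bases upstream of the RefSeq start. It lies 98 bases upstream in CXCL2, 118 in CXCL3, 102 in CXCL5 and 71 in TNFAIP3. In these genes the marked letters therefore come after GENCODE's start. The result of 1 further gene is not reported here. Transcript identity was used in place of protein identity. The SOX letters, the description of other genes with the core letters and that of neighbouring genes were added after the data were seen. Alternatives were scaling by TMM factors (1.03 for shRNA-Con and 0.975 for shRNA-SOX2), by clean tags and by the median ratio, an assumed coefficient of variation of 0.1, 0.2 or 0.4, at least 10 tags, the test of Audic and Claverie, an FDR of 0.05, a log2 ratio of at least 1 in size, and 0.5 added to each count. Python 3.11.15, scipy 1.17.1, Biopython 1.88, R 4.3.3, edgeR 4.0.16 and DESeq2 1.42.0 were used.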

Additional observations from a re-analysis of the deposited data

How the results depend on the processing

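No paired analysis was possible because the groups have 1 library each, and no library could be left out for the same reason. Of 90 log2 ratios of members under the alternatives, 78 kept their direction and side of the threshold. A further 9 kept their direction but no longer passed, 3 newly passed and 0 reversed. The edgeR settings, the tag minimum and the test of Audic and Claverie reused the main log2 ratios, so direction could not change there. Direction could change only with scaling by TMM factors, the median ratio or clean tags, and with the constant added to counts. That constant left the adjusted p-values as they were, so the side of the threshold could not change there. The 4 members that fell became 0 where edgeR's exact test assumed a coefficient of variation of 0.2 or of 0.4, and 7 at an FDR of 0.05. Without adjustment, 4 members had p under 0.05 at a coefficient of 0.2, and 2 at 0.4. The 0 members that rose became 1, NFKBIA, with the median ratio, with TMM factors and at an FDR of 0.05. Of the other pathway genes, the 14 that rose became 9 with clean tags and 0 at a coefficient of 0.2, where the 15 that fell became 1. Fewer genes pass at an assumed spread because the test then allows for variation between cultures, whose size these libraries cannot give. The causes of the shifts with scaling were not tested. The fewest tags in the libraries together were the 29 of TNFAIP3 and the 82 of CXCL3.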
